A study of Drosophila melanogaster with 8 samples.

Results

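The sites described here are 1630 stretches of embryonic chromatin at the ends of protein-coding genes where Ribbon fused to green fluorescent protein (Rib-GFP) gave a peak under the btl-GAL4 driver and none under the trh-GAL4 driver. They were selected from the joint list of btl replicates 1 and 2, named the btl list here, and make up 18.8% of its 8693 regions. A region was taken when it shared at least 1 bp with the peak list of btl replicate 3, shared none with the list of trh replicates 1 and 2, and had its summit, the position of strongest signal, within 500 bp of either end of a protein-coding gene. Presence and absence in the 3 lists therefore chose the sites, and everything below about their strength in those lists is a description with no test. Absent with trh means absent from a list of 3210 regions, which is not a measurement of no binding.

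Rib has a BTB domain, through which such transcription factors pair, and a DNA-binding domain of the Pipsqueak type. It is known in the fly embryo for the growth and elongation of tubes in the trachea and the salivary gland. GAL4 drivers switch on a UAS transgene in chosen cells: btl encodes the fibroblast growth factor receptor of tracheal cells, and trh encodes a bHLH-PAS factor that sets tracheal fate and is also made in the salivary gland.

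Chromatin came from whole Drosophila melanogaster embryos raised at 25 °C, from several collections. The btl-GAL4 samples comprised 3 immunoprecipitations and 2 inputs, and the trh-GAL4 samples 2 immunoprecipitations and 1 input. All were fixed in 1.8% formaldehyde, precipitated with a polyclonal goat antibody to GFP and read as 50 bp single ends. Sample titles and genotypes give the transgene as UAS-GFP, while the protocol gives UAS-rib-GFP, and the second reading was used. If the first is right, none of the values concerns Rib. The first stage is 11 in all labels, and the last is 15 by the characteristics but 16 by the protocol. The library kit and the place of sequencing were the same for replicates 1 and 2 of either driver and different for btl replicate 3, so replicate 3 and its batch cannot be told apart. The drivers are active in a part of the embryo, and whole-embryo chromatin was used, so fewer expressing cells and less binding per cell cannot be told apart. An immunoprecipitation with GFP alone was not analysed here. Read depth is unknown from peak lists, and the Wilson 95% intervals given with shares cover counting error only.

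Gene ends held 2771 of the 8693 btl regions, which was 31.9% (interval 30.9 to 32.9%). Of these, 2232 also overlapped replicate 3, and of those 1630 were absent with trh (73.0%, interval 71.1 to 74.8%) and 602 were shared with trh. The share absent with trh was 69.8% (interval 68.3 to 71.2%) among 3730 regions inside genes that both btl lists held, and 75.5% (interval 72.7 to 78.0%) among 1023 such regions between genes. Gene ends thus lay between the other classes of position. Another 457 gene-end regions of the btl list overlapped neither replicate 3 nor trh and were not counted as members.

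The sites absent with trh spanned nearly the whole range of strength. Fold enrichment, the authors' ratio of signal over background at the summit, was 2.48 at the median site in the btl list, with quartiles of 2.02 and 3.17 and a range of 1.23 to 8.04. That median stood at percentile 32.7 of the whole btl list. In replicate 3, the strongest summit of the overlapping region had a median fold of 3.21, with a range of 1.44 to 9.96, and the median site stood at percentile 71.4 of replicate 3 regions. The lists differ in length and filtering, and every site had to overlap replicate 3, so a rank in one list is not set against a rank in the other. Of the 1630 sites, 66.4% (interval 64.1 to 68.7%) lay below the median fold of the btl list and 45.0% (interval 42.6 to 47.4%) were in the top 25% of replicate 3 regions.

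Sites shared with trh were stronger in both btl lists. Median fold in the btl list was 2.48 at sites absent with trh and 2.90 at the 602 shared sites. The median −log10 q, the authors' measure of significance, was 23.0 at absent sites and 36.6 at shared sites. Region width had a median of 673 bp at absent sites and 834.5 bp at shared sites. In replicate 3 the median fold was 3.21 at absent sites and 4.00 at shared sites. The trh list itself gave the shared sites a median fold of 2.00, with a range of 1.40 to 5.03. Fold ranges overlapped over most of their length, since shared sites ran from 1.46 to 10.9 in the btl list.

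Compared within each list, trh-absent sites away from gene ends had higher folds in the btl list and lower folds in replicate 3. Median fold in the btl list was 2.48 at gene ends, 2.97 at the 2602 sites inside genes and 3.12 at the 772 sites between genes. Median fold in replicate 3 was 3.21 at gene ends, 2.74 inside genes and 2.60 between genes. The share in the top 25% of replicate 3 regions was 45.0% at gene ends, 30.5% (interval 28.8 to 32.3%) inside genes and 23.2% (interval 20.3 to 26.3%) between genes. Kit, sequencing centre and peak calling differed between these lists together with the replicate, and their part in this contrast was not tested.

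**Figure D1:**
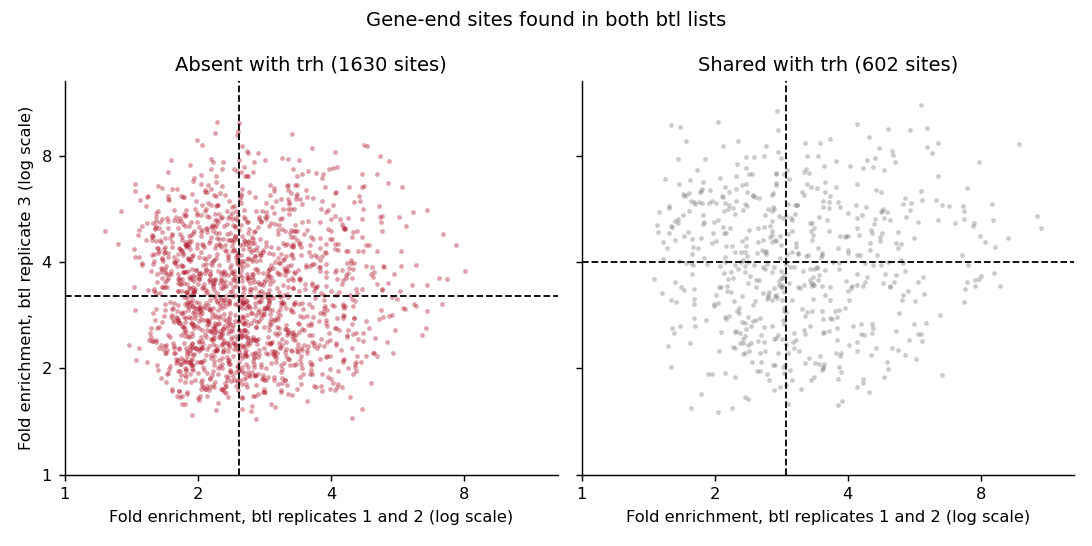
Each point is 1 gene-end site found in both btl lists, with its fold enrichment in btl replicates 1 and 2 on the x axis and that of the strongest overlapping summit in btl replicate 3 on the y axis, both on log scales. Dashed lines mark the medians, which were 2.48 and 3.21 for the 1630 sites absent with trh (left) and 2.90 and 4.00 for the 602 sites shared with trh (right). Neither cloud slopes.

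Within the set, the order of sites by btl fold said little about their order by the fold of the strongest overlapping replicate 3 summit. That summit was not always the one nearest the btl summit. Spearman's rank correlation between the fold values was 0.0101 over the 1630 sites absent with trh and −0.00843 over the 602 shared sites. Between the −log10 q values it was 0.347 at absent sites and 0.342 at shared sites. Neighbouring sites can share a replicate 3 region, so these values are descriptions only. The nearest replicate 3 summit was a median of 73 bp from the btl summit, within 100 bp at 64.3% of sites and within 250 bp at 94.8%. Every site had to overlap a replicate 3 region, and the nearest summit was taken. Short distances were thus in part set by the choice of sites and are not set against the correlations.

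The share absent with trh was lower among the strongest sites in each list. In 10 bins of equal size by btl fold, absence was 75.0% in the weakest bin, 89.2% in the next and 46.4% (interval 40.0 to 53.0%) in the strongest. By btl −log10 q it was 88.4% in the weakest bin and 41.5% in the strongest. By replicate 3 fold it was 81.2% in the weakest bin and 52.7% in the strongest. Even in the strongest bins, between 41.5% and 52.7% of gene-end sites had no region in the trh list.

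**Figure D2:**
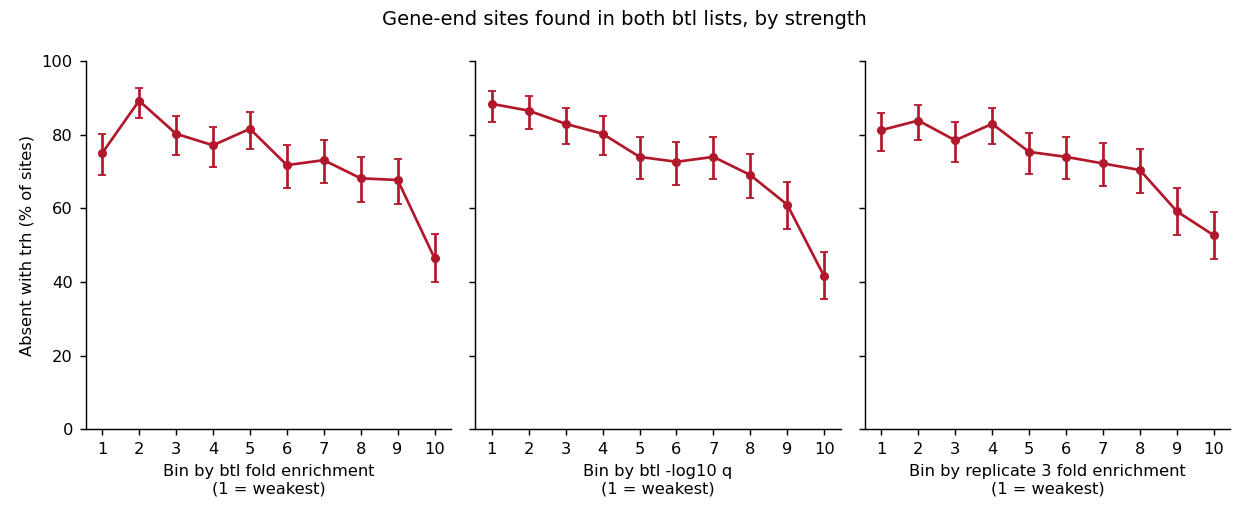
Share of gene-end sites in both btl lists that were absent with trh (y axis, %), in 10 bins from weakest to strongest (x axis) by btl fold enrichment, btl −log10 q and replicate 3 fold enrichment. Points carry Wilson 95% intervals over 223 or 224 sites, and the strongest bins sit at 46.4%, 41.5% and 52.7%.

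The strongest sites in the btl list lay mostly outside the gene that named them. The 10 highest had btl folds of 6.54 to 8.04 and replicate 3 folds of 2.60 to 5.62, and 7 of the 10 summits were outside the named gene. The highest was CG43138 on X (7528824 to 7529517, Release 6), at 8.04 in the btl list and 3.78 in replicate 3, with its summit 338 bp beyond the gene. It was followed by CG14147 at 7.65 and 4.46. The site of grn, which encodes a GATA transcription factor, lay on 3R (8146643 to 8147391) and had 7.32 in the btl list and 3.59 in replicate 3. Fur2, a furin-type protease gene, had 7.18 in the btl list and 4.81 in replicate 3. The remaining sites of this rank were those of CG32320, CG7102, Lip1, timeout, CG43295 and CG18258. The site of timeout, a paralogue of the clock gene timeless, reached a −log10 q of 118 in the btl list, and its summits in the btl list and in replicate 3 were 2 bp apart.

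The strongest sites in replicate 3 belonged to other genes, and their summits in the btl list lay mostly inside them. The 10 highest had replicate 3 folds of 8.52 to 9.96 with btl folds of 1.99 to 4.81. Of their 10 btl summits, 8 were inside the named gene. HDAC1, a histone deacetylase gene, led with 9.96 in replicate 3 and 2.21 in the btl list (3L, 4626570 to 4627466). Ranbp21, a nuclear transport receptor gene that shares its site with Elys, had 9.88 in replicate 3 and 2.47 in the btl list. Smox, the Smad of activin signalling, had 9.40 in replicate 3 and 2.47 in the btl list. Uba1, the ubiquitin-activating enzyme gene, had 8.86 in replicate 3 and 1.99 in the btl list. The dynein heavy chain gene Dhc64C had 8.55 in replicate 3 and 4.74 in the btl list, and the nucleoporin gene Nup358 had 8.52 and 4.81. CG5098 and senju completed the sites of this rank together with Imp and CG10939. At those last sites the strongest replicate 3 summit was not the nearest: the nearest had 2.56 at Imp and 4.55 at CG10939, against 9.19 and 9.16 for the strongest.

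All 1630 sites were also divided by strength into 4 groups of equal size, and here a summit counted as inside when it lay in any gene, named or not. By replicate 3 fold, the summit of the btl list lay inside a gene at 63.5% (interval 58.7 to 68.0%) of the weakest sites and 77.9% (interval 73.7 to 81.7%) of the strongest. By btl fold, it lay inside a gene at 76.5% (interval 72.1 to 80.3%) of the weakest sites and 66.7% (interval 62.0 to 71.1%) of the strongest. The genes at the sites weakest in replicate 3 had a median length of 2579 bp, and those at the strongest 4097 bp. By btl fold the median length was 3943.5 bp at the weakest sites and 2927 bp at the strongest. The groups by replicate 3 fold also differed in other ways. Sites with 2 or more replicate 3 summits made up 18.1% of the weakest and 59.1% of the strongest, and median region width was 544.5 and 828.5 bp. By btl fold these shares were 50.7% and 36.8%, and the widths 591 and 793 bp. The part of summit number and width in the differences above was not tested.

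The lowest folds in the btl list were 1.23 at Hr39, a nuclear receptor gene, 1.32 at Mes2, 1.34 at ome, 1.40 at CG14960 and 1.43 at noc, a zinc-finger gene. Replicate 3 gave the same sites folds of 4.90 at Hr39, 4.50 at Mes2, 5.57 at ome, 2.32 at CG14960 and 3.40 at noc. At Hr39 and ome the strongest replicate 3 summit was not the nearest, which had 4.08 and 2.28. Across the whole set, replicate 3 fold exceeded btl fold at 1110 sites (68.1%, interval 65.8 to 70.3%), and among sites shared with trh at 397 of 602 (65.9%, interval 62.1 to 69.6%). The replicate 3 fold was the highest of all overlapping summits and the btl fold that of 1 region, so these shares compare unlike measures. The lists were also normalised separately, so the sign of the difference in fold at 1 site carries no meaning of its own.

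The choice of sites put every summit within 500 bp of a gene end, and inside that window most summits lay close to the end. The shares below depend on that window. The median distance to the nearest end was 98 bp at sites absent with trh and 104 bp at shared sites. At absent sites, 17.4% of summits lay within 25 bp of an end, 50.7% (interval 48.3 to 53.2%) within 100 bp and 84.4% within 250 bp. The summit was inside a gene at 71.2% (interval 69.0 to 73.4%) of absent sites and 66.6% (interval 62.7 to 70.3%) of shared sites. The start of a gene was not told from its other end, because the gene table used gives no strand, and neither exons nor introns were assigned.

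At 896 sites a single protein-coding gene lay within 500 bp, so the side of the end could be read. The btl summit stood a median of 56.5 bp inside the gene and the replicate 3 summit nearest to it a median of 141 bp inside. It was inside or at the end in 65.6% of these sites in the btl list and 69.6% in replicate 3. The btl summit had to lie within 500 bp of the end by the choice of sites and the replicate 3 summit did not, so their distances from the end are not a like comparison. Replicate 3 was the farther inward at 583 of the 896 sites, or 65.1%. The 427 shared sites with a single gene had medians of 18 bp inside in the btl list and 104 bp inside in replicate 3.

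**Figure D3:**
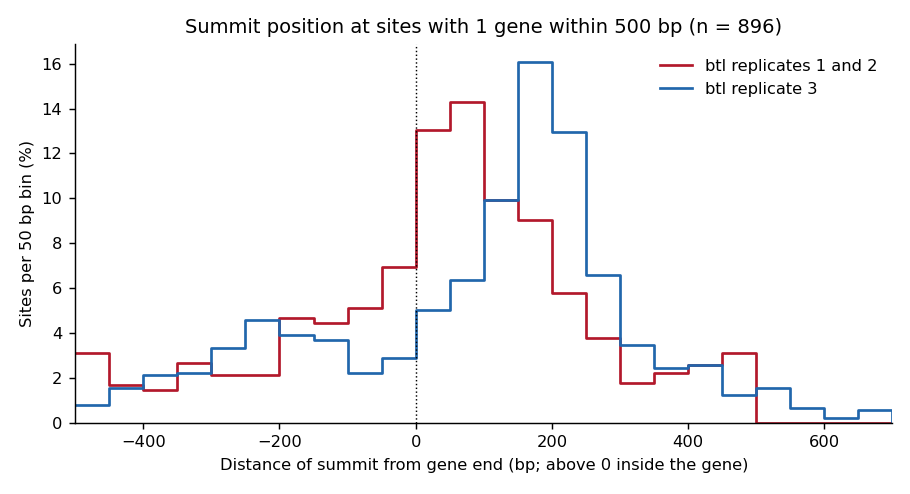
Position of summits relative to the gene end (x axis, bp, with values above 0 inside the gene) at the 896 sites absent with trh that have 1 protein-coding gene within 500 bp, as the share of sites per 50 bp bin (y axis, %). The btl list (red) peaks just inside the end, with a median of 56.5 bp, and replicate 3 (blue) peaks farther in, with a median of 141 bp. For replicate 3 the summit nearest the btl summit is shown.

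Sites absent with trh often lay where genes meet. Of the 1630 sites, 734 had 2 or more protein-coding genes within 500 bp (45.0%, interval 42.6 to 47.5%), against 175 of 602 shared sites (29.1%, interval 25.6 to 32.8%). Among the 692 with exactly 2 genes, the summit was in the gap between them at 215 sites and inside 1 of them at 408 sites, and the genes overlapped at the other 69 sites. Where the genes did not overlap, the gap had a median length of 238 bp. At such sites the data do not say which gene the binding belongs to. A gene named above or below may share its site with a neighbour, which is not given in every case.

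The sites touched 2311 of 13922 protein-coding genes, which is 16.6% of them. Gene-end sites in all 3 lists touched 775 genes, or 5.57%, and 47 genes had a site of both kinds. Genes with a site absent with trh had a median length of 3406 bp, those with a shared site 4801 bp, and all protein-coding genes 2163 bp. A trh region lay somewhere in the span of 13.9% (interval 12.6 to 15.4%) of the genes with an absent site and of 11.8% (interval 11.3 to 12.3%) of all protein-coding genes. The arms carried 308 sites on 2L, 297 on 2R, 348 on 3L, 421 on 3R, 249 on X and 7 on the small chromosome 4. The share of an arm's genes with a site ran from 11.2% on chromosome 4 to 18.2% on 3L and 3R.

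No gene had more than 2 of these sites, and 96 genes had 2. In 89 of them the sites stood at opposite ends of the gene, and their median length was 2813 bp. CG43138 carried the top site of the btl list at one end and a site of 5.50 in the btl list and 2.84 in replicate 3 at the other. Mgtor, which encodes a nuclear pore basket protein, had 5.24 and 3.89 at one end and 3.56 and 3.03 at the other, in the btl list and in replicate 3. Septin4, a septin gene, had 3.15 and 3.77 at one end and 3.48 and 2.56 at the other. Genes with a site at each end were singled out after their values were seen.

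Overlap with a trh region was excluded by the choice of sites, and few sites had a trh region close by. A trh region lay within 500 bp of 57 sites (3.50%) and within 1000 bp of 114 (6.99%, interval 5.85 to 8.34%). Inside genes a trh region lay within 1000 bp of 13.8% (interval 12.5 to 15.1%) of the trh-absent sites, and between genes of 9.84% (interval 7.94 to 12.1%). Within 5000 bp the shares were 25.7% at gene ends, 45.1% inside genes and 33.2% between genes. The nearest trh regions without overlap were 198 bp from the site at CG15083, 222 bp at Apt1 and 232 bp at Vps15. On the other side of that threshold, the smallest overlaps that placed a site among the shared ones were 59 bp at Duox, 168 bp at 5PtaseI and 170 bp at CG13078. No site lay between a gap of 198 bp and an overlap of 59 bp.

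Gene function was described with 16 gene lists, compared by the share of their genes with a site, beside the 16.6% of all protein-coding genes.
The lists were written with earlier results of these data known, their genes are not replicates, and their shares are descriptions. The highest shares were those of tracheal development genes (11 of 28, 39.3%, interval 23.6 to 57.6%), cytoplasmic aminoacyl-tRNA synthetases (7 of 18, 38.9%, interval 20.3 to 61.4%) and translation factors (18 of 53, 34.0%, interval 22.7 to 47.4%). The lowest were those of cuticle and cuticle-associated proteins (9 of 151, 5.96%, interval 3.17 to 10.9%) and chemoreceptors (4 of 179, 2.23%, interval 0.872 to 5.60%). The general transcription machinery was also above the share of all genes. Many sites of these lists had another protein-coding gene within 500 bp, to which the site may belong. That held at 6 of 7 synthetase sites, 12 of 18 translation factor sites and 20 of 26 general transcription sites. It held at 1 of 11 tracheal sites and at 734 of all 1630. The intervals of the other 10 lists held that share: cytoplasmic and mitochondrial ribosomal proteins, proteasome, oxidative phosphorylation and vacuolar proton pump subunits, secretory pathway genes, Rab GTPases, BTB factors, signalling genes and apical membrane and junction genes.

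**Figure D4:**
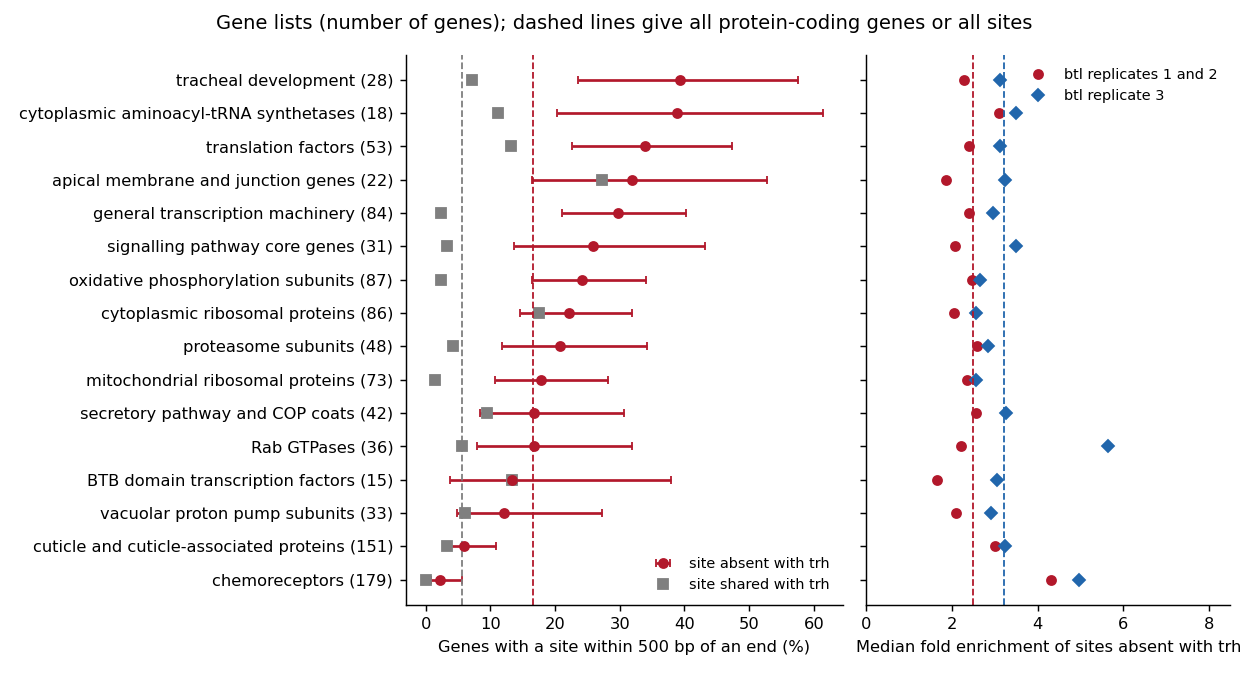
Left, share of genes with a gene-end site absent with trh (red, with Wilson 95% intervals) or shared with trh (grey) for each gene list on the y axis, with the number of its genes in brackets and dashed lines at 16.6% and 5.57% of all protein-coding genes. Right, median fold enrichment of the sites absent with trh in btl replicates 1 and 2 (red) and btl replicate 3 (blue), with dashed lines at the medians of all 1630 sites, 2.48 and 3.21. The 7 Rab GTPase sites stand at 2.22 and 5.65, and 6 of them have another protein-coding gene within 500 bp.

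Cytoplasmic ribosomal protein genes, which encode the proteins of the ribosome and are named in the title of the series, had a site absent with trh in 19 of 86 cases (22.1%, interval 14.6 to 31.9%). A gene-end site shared with trh was present at 15 of the 86 (17.4%), against 5.57% of all protein-coding genes, and 1 gene, RpS27, had both kinds. The list thus stood closer to the share of all genes for sites absent with trh than for shared sites; no test of that difference was made. The 20 absent sites had median folds of 2.04 in the btl list and 2.56 in replicate 3, against 2.48 and 3.21 over all 1630 sites. At 13 of the 20 sites another protein-coding gene was also within 500 bp.

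RpS27 had the highest btl fold of the list, 4.34, with 2.49 in replicate 3 (3R, 25245370 to 25245898), and its summit was 290 bp outside the gene. RpS21 had 4.08 in the btl list and 4.34 in replicate 3, at a site nearer to its neighbour CG2991 and 394 bp from a trh region. RpL36 had 3.21 in the btl list and 5.91 in replicate 3, the highest replicate 3 fold of the list. That site, on X (629180 to 629853), also lay at the end of Mybbp1A, with its summit 14 bp outside RpL36. RpL17 and RpL10Ab had btl folds of 2.98 and 2.84, with replicate 3 folds of 2.74 and 1.71. RpS5a had 2.27 in the btl list and 5.36 in replicate 3, and RpS23 had 2.22 and 3.77. RpL27A, RpS29, RpL35, RpS13, RpS25, RpS24 and RpS9 had btl folds between 1.85 and 2.40 and replicate 3 folds between 1.95 and 2.64. The RpL27A sites were nearer to mRpL27 and Gs1l, and the RpS9 site was nearer to CG3408. RpS14a and RpS14b are near-identical neighbours with 1 site between them and another beyond RpS14b, and reads from such copies can be assigned to either.

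**Figure D5:**
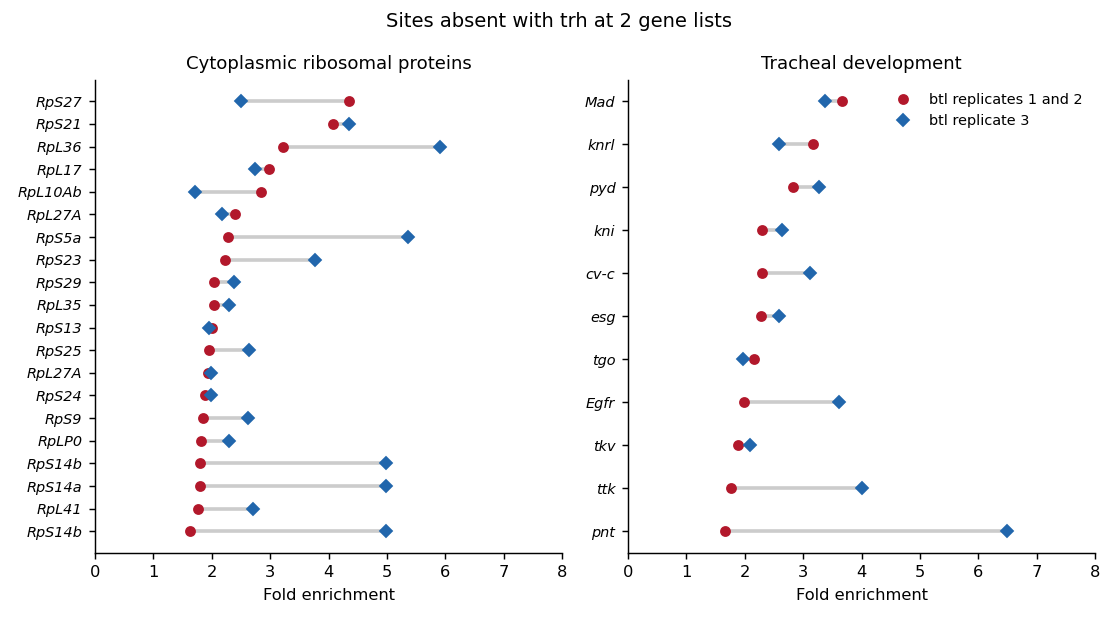
Fold enrichment (x axis) of sites absent with trh at cytoplasmic ribosomal protein genes (left) and tracheal development genes (right), with 1 row per gene and site shown, in btl replicates 1 and 2 (red circles) and btl replicate 3 (blue diamonds). RpS27 tops the left panel at 4.34 and 2.49, and Mad the right panel at 3.67 and 3.38.

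Genes of translation and protein turnover gave further examples. Among translation factors, eEF5, the hypusinated elongation factor gene, had 5.78 in the btl list and 6.51 in replicate 3, and eEF1delta had 4.25 and 3.05. The tRNA synthetase genes ThrRS and TrpRS had 3.60 and 3.41 in the btl list and 4.72 and 3.55 in replicate 3. The TrpRS site was nearer to Vps16A. Proteasome subunits had a site at 10 of 48 genes (20.8%, against 16.6% of all genes). They were led by Prosbeta5 at 4.37 in the btl list and 4.30 in replicate 3, and by Rpn13 at 3.04 and 2.76. The Prosbeta5 site was nearer to dgo. The Rpn13 site was nearer to CtsL1.

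Mitochondrial ribosomal protein genes had a site absent with trh at 13 of 73 genes (17.8%, against 16.6% of all genes) and a shared site at 1 (mRpL55, 1.37%, against 5.57% of all genes). Oxidative phosphorylation subunits had an absent site at 21 of 87 (24.1%, interval 16.4 to 34.1%) and a shared site at 2 (ATPsynC and COX5A, 2.30%). All 13 sites of the mitochondrial ribosomal proteins had 2 or more genes within 500 bp, as had 21 of the 25 sites of the oxidative phosphorylation subunits. The highest btl folds were those of mRpL33 (3.52, with 4.92 in replicate 3), mRpS2 (3.12 and 4.52), ATPsynbeta (4.97 and 2.21) and ND-39 (4.11 and 2.33). The mRpL33 site was nearer to norpA, the mRpS2 site to Mon1 and the ATPsynbeta site to CG11076.

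The general transcription machinery, here Mediator, TFIID and other initiation factors and RNA polymerase subunits, had a site absent with trh at 25 of 84 genes (29.8%, interval 21.0 to 40.2%) and a shared site at 2 (MED4 and Polr1D, 2.38%). Taf4, a TFIID subunit gene, had 4.60 in the btl list and 2.43 in replicate 3. The summit of that site was 1 bp from an end of Strump and 352 bp from Taf4. The Mediator gene MED20 had 4.44 in the btl list and 3.98 in replicate 3, and its site was nearer to poe. Trf2, which encodes a relative of the TATA-binding protein that acts at many promoters without a TATA box, had 2.07 in the btl list and 6.38 in replicate 3; it was singled out after its values were seen.

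Rab GTPase genes, which act in membrane traffic, had 7 sites at 6 of 36 genes (16.7%, against 16.6% of all genes). At 6 of the 7 sites another protein-coding gene was also within 500 bp, to which the site may belong. The median fold of the 7 sites was 2.22 in the btl list and 5.65 in replicate 3, where they ranged from 1.97 to 8.14. Rab30, at a site nearer to Caper, had 3.30 in the btl list and 5.65 in replicate 3. Rab10, at a site nearer to CG17068, had 2.74 in the btl list and 8.14 in replicate 3. Rab6 and Rab7, given after their values were seen, had 1.95 and 1.80 in the btl list and 1.98 and 1.97 in replicate 3. Secretory pathway genes had a site at 7 of 42 genes (16.7%), with Syx5, a Golgi syntaxin gene, at 4.08 in the btl list and 4.49 in replicate 3, and Srp9 at 2.95 and 3.54. The Srp9 site was nearer to syd. Vacuolar proton pump subunits had a site at 4 of 33 genes (12.1%), led by VhaM9.7-a at 4.36 and 2.57 and VhaSFD at 2.58 and 3.92. All 8 sites of the secretory pathway genes and 3 of the 5 proton pump sites had 2 or more protein-coding genes within 500 bp. The VhaM9.7-a site was nearer to CG1273.

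The 11 sites of tracheal development genes had median folds of 2.28 in the btl list and 3.12 in replicate 3, against 2.48 and 3.21 over all 1630 sites. Of the 11, 9 lay below the median of the btl list, as did 66.4% of all sites. Only 1 of the 11, at tgo, had a second protein-coding gene (neur) within 500 bp, whereas 45.0% of all sites had. Shared sites were found at 2 of the 28 genes, stumps and aop. Mad, the Dpp-regulated Smad, had the highest btl fold of the list, 3.67, with 3.38 in replicate 3 (2L, 3158518 to 3159662), and its summit was 225 bp inside the gene. The Dpp receptor gene tkv had 1.88 in the btl list and 2.08 in replicate 3. knrl and kni, a pair of related genes of the nuclear receptor family that act in branch formation, had 3.17 and 2.29 in the btl list and 2.59 and 2.64 in replicate 3. Their regions were 79631 bp (knrl) and 4806 bp (kni) from the nearest trh region.

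The other tracheal genes had btl folds between 1.66 and 2.82. The fusion cell factor gene esg had 2.28 in the btl list and 2.58 in replicate 3, with a trh region 539 bp away. tgo, which encodes the partner of the Trh protein, had 2.16 in the btl list and 1.97 in replicate 3, with its summit 117 bp inside the gene. The receptor gene Egfr had 1.98 in the btl list and 3.62 in replicate 3. The ETS factor gene pnt had 1.66 in the btl list and 6.48 in replicate 3, and the zinc-finger BTB gene ttk had 1.76 and 4.01. pyd, a junction protein gene, and cv-c had 2.82 and 2.29 in the btl list and 3.27 and 3.12 in replicate 3. Apart from Mad and knrl, these genes were given in full after their values were seen.

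Signalling core genes had a site at 8 of 31 genes (25.8%). Beside Mad, ds, an atypical cadherin gene, had 3.07 in the btl list and 5.31 in replicate 3. Apical membrane and junction genes had a site absent with trh at 7 of 22 genes (31.8%, interval 16.4 to 52.7%) and a shared site at 6 (27.3%). In this list shg, the E-cadherin gene, had a site at each end, with 3.10 and 1.59 in the btl list and 1.99 and 3.34 in replicate 3. baz, the Par-3 gene, had 2.87 in the btl list and 3.18 in replicate 3. Of the 15 BTB factor genes, ttk and ab had a site, and ab had 1.53 in the btl list and 2.09 in replicate 3.

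Cuticle and chemoreceptor genes had few sites, some of them strong. Cuticle genes reached 6.43 in the btl list at Cpr97Eb, with 2.48 in replicate 3, and 6.23 at Osi8, with 3.01 in replicate 3. Their 9 sites had median folds of 2.99 in the btl list and 3.23 in replicate 3, and none had a second protein-coding gene within 500 bp. The 4 chemoreceptor genes had 3 sites, each at 2 or more genes. The site of Ir60b (5.17 in the btl list, 7.97 in replicate 3) was nearer to Letm1, and that of Gr59f (4.31 and 4.96) nearer to AIMP3. The third lay 322 bp from both Gr10a and Or10a, which have the same coordinates in the gene table.

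At the edge of the window, the sites with the longest distances were those of Sox15 at 495 bp, bdg at 493 bp and CG15740 at 492 bp, with btl folds of 2.94, 1.81 and 2.98. Just beyond it were regions near CG9692 and CG13949, both at 502 bp, with btl folds of 6.08 and 1.92. Some sites also lay within 500 bp of an end of a non-coding gene. They numbered 51 for antisense RNA, 48 for long non-coding RNA, 9 for tRNA, 8 for snoRNA and 7 for miRNA genes. These counts are given without the number of genes in each class or a share among sites shared with trh. Whether any class was over- or under-represented was not tested.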

How the data were processed

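Rib-GFP ChIP-seq of fly embryos (8 samples) was read from 3 deposited peak lists. The submitters' processing notes name the build dm6 and the tools CASAVA 1.8.2, Bowtie2, SAMtools, Picard, MACS2 2.2.4 and bedtools. Per the labels, the btl and trh lists each joined replicates 1 and 2 at an irreproducible discovery rate of 0.1, and the third list was btl replicate 3 alone. In the joint lists the authors' score was taken to express that rate on a scale with a cap. The deposited ratio column was read as fold enrichment and the deposited −log10 column as that of the q-value, from their layout and values. Positions count from 1 on Release 6.

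Overlaps, distances and Wilson 95% intervals were computed in Python 3.11.15 with pandas 2.3.3 and checked on simulated intervals. Gene ends came from the RefSeq table of Release 6, which gives no strand. For fold, a replicate 3 region was represented by its strongest summit, and for position by the summit nearest the btl summit. No test was made, because presence in the lists chose the sites, and depth is unknown.

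The members and gene lists were chosen with earlier results of these data known. Genes were named by a fixed rule: the 10 highest in either btl list, the 5 lowest in the btl list, ribosomal protein genes by btl fold (up to 15), the 2 highest of each other list, and the sites at the thresholds. A further list, with positions only, was not used. Motifs, sequences and start sites were not analysed here. Alternatives covered the window, the summit, the overlaps, the list thresholds and the gene set. A few named items are not reported here.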

Additional observations from a re-analysis of the deposited data

How the results depend on the processing

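The number of sites was between 1263 and 2087 over 9 alternatives, against 1630, and the number of genes between 1749 and 3041, against 2311. Ribosomal protein genes with a site numbered 13 to 28, against 19. The share of summits within 100 bp of an end, 50.7%, was 60.1% with a window of 250 bp, 42.0% with a window of 1000 bp and 45.7% with region midpoints in place of summits. The share absent with trh, 73.0%, was 70.5% when no trh region was allowed within 500 bp, 71.0% with replicate 3 summits in the upper 50% by −log10 q, and 75.3% without replicate 3. The share with a trh region within 1000 bp, 6.99%, was 3.62% when none was allowed within 500 bp, which follows from that rule. Median btl fold was 2.52 at a discovery rate of 0.05, against 2.48, and median replicate 3 fold was 3.69 with the upper 50% of replicate 3, against 3.21. Replicates 1 and 2 are pooled in their lists and could not be left out. No paired analysis was possible because the results come from no test. The planned results on start sites and motifs were not run, since no strand or sequence was used here.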

Other observations

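The sites at Hr39, ome and CG14960 had their btl summit within 10 bp of an edge of the region. These regions were 248 to 255 bp wide and had the folds 1.23, 1.34 and 1.40. Each had another region of the btl list within 500 bp, as had 244 of the 1630 sites (15.0%). The score was at its cap of 1000 at Hr39 and ome and was 889 at CG14960. The q-value was above 0.05 at ome and CG14960, so ome had a capped score in spite of it. No site shared with trh had its summit within 10 bp of an edge (0 of 602, interval up to 0.634%). Such summits were rare, and no contrast between absent and shared sites is drawn from them.

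Replicate 3 regions were broad enough to hold more than 1 site: 29 of the 1637 regions that overlapped a site overlapped 2 or more, and 83 sites (5.09%) lay in a replicate 3 region that held a trh region elsewhere along its length.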
